A study of Mus musculus with 6 samples.

Results

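Translation initiation and elongation factors are the proteins that bring ribosomes to a messenger RNA, place them at the start codon and then move them along it. The set described here holds the protein-coding genes on the autosomes whose symbol begins with Eif1 to Eif6, Eef1 or Eef2. Of 21606 genes in the count table, 72 matched by symbol, 64 were members, 3 lay on the X or Y chromosome and 5 were processed pseudogenes. Their RNA was counted in bone marrow cells with high activity of aldehyde dehydrogenase (ALDH), called ALDHbr, a fraction rich in progenitors. The libraries came from wild-type C57BL/6 mice, an inbred laboratory strain, with 3 from male and 3 from female animals; no age or treatment is labelled. They were made by BRB-seq, in which an oligo-dT primer with a sample barcode starts the cDNA and the barcoded samples are then pooled, so reads lie near the 3′ end. Whether each replicate was a separate animal is not labelled, and p-values therefore cover only the spread among these samples, which may be technical.

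Initiation starts when eIF2, carrying the initiator tRNA and GTP, joins the small ribosomal subunit together with eIF1, eIF1A, eIF3 and eIF5. The eIF4F complex, made of the cap-binding eIF4E, the scaffold eIF4G and the helicase eIF4A, brings this particle to the 5′ end of the mRNA. Elongation then uses eEF1A to deliver aminoacyl-tRNAs and eEF2 to move the ribosome. Supply is tuned at known points: kinases that phosphorylate eIF2 lower initiation, and 4E-binding proteins keep eIF4E from eIF4G until the kinase mTORC1 releases them. Many mRNAs for elongation factors and some eIF3 subunits are TOP mRNAs, which begin with a run of pyrimidines (C or T in the DNA) and are translated under mTORC1 control. Blood progenitors are known to depend on closely regulated protein synthesis.

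The starts of 7 translation factor genes, all with a run of at least 8 pyrimidines, are shown with that run in capitals. Each line is 30 bases of the transcribed strand, 5′ to 3′, from RefSeq promoters on GRCm38.p6, and holds the longest run of C or T found between 20 bases before and 50 bases after the listed start.
Eef1a1: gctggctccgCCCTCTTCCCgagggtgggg
Eef2: gacgtcagcggTCTCTTCCgccgcagccgc
Eif3f: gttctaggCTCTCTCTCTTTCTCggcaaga
Eif3k: gctgaaagcgCCTTTCCCTTTgccttcctt
Eif3m: tacggcaccgCTCTCTTTTCCggtcggcgt
Eif2s3x: ccgagcaTTTTCCTTTTCTCTCCgagcaag
Eif2s3y: ccacagccaCTTCCTTCTTTCgtgagcaag
The windows lie at chr9:78481710-78481739 on the minus strand for Eef1a1, chr10:81176634-81176663 on the plus strand for Eef2, chr7:108934403-108934432 on the plus strand for Eif3f and chr7:28981856-28981885 on the minus strand for Eif3k. Those of Eif3m, Eif2s3x and Eif2s3y lie at chr2:105017028-105017057 (minus), chrX:94212634-94212663 (minus) and chrY:1010587-1010616 (plus). In Eef1a1, Eif3f and Eif2s3x the run spans the listed start itself, in Eef2, Eif3k and Eif2s3y it begins after the start, and in Eif3m it ends before it. A listed start can be some bases away from the start used in these cells. Eef1b2 and Eif4b, listed below among known TOP mRNAs, are not shown, and their longest runs were 5 and 7 bases. Eif3k, Eif3m, Eif2s3x and Eif2s3y are shown but are not in that list.

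Such runs were not more frequent in the factors than in genes at large. Of 42 members with a single listed start, 11 held at least 8 pyrimidines in a row in that window (26.2%), against 25.3% of 22862 genes in the same table. On the other strand, read as runs of at least 8 purines, the shares were 16.7% and 27.7%. A further 7 members had several listed starts and 15 were not matched. The 11 members with a run had a median log2 fold change of 0.06 between male and female cells with 7 above 0, and the 30 tested members without one had a median of -0.03 with 13 above 0. These are descriptions of letters in a window and do not identify a TOP mRNA.

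The libraries held 837756, 679724 and 880074 counts in male replicates 1 to 3, against 1199551, 1475224 and 1285309 in female replicates 1 to 3. Myeloid progenitor genes (Mpo, Elane, Prtn3, Ctsg, Cd34 and Kit), summed as normalised counts per 1e+06 (CPM, scaled by TMM), were at 13144 to 14152 CPM in male and 14732 to 15415 CPM in female libraries. Of the 6, 0 were called. Mpo and Elane were lower in every male library, with log2 fold changes of -0.27 and -0.24. Prtn3 (-0.06), Kit (-0.08), Ctsg (0.18) and Cd34 (0.12) overlapped between the sexes, the last 2 with fold changes above 0. Erythroid genes summed to 223 to 376 CPM in male and 96.6 to 112 CPM in female libraries, with Car1 and Car2 called of 2 tested. Megakaryocyte genes summed to 38.4 to 111 CPM in male and 21.7 to 30.6 CPM in female libraries, with Pf4 called of 1 tested. B cell genes, with Ms4a1 called lower of 2 tested, summed to 59.9 to 69.9 CPM in male and 89.4 to 93.9 CPM in female libraries. Plasma cell genes summed to 6239 to 7292 CPM in male and 7993 to 9259 CPM in female libraries, most of it from Igkc. Igkc had 5445, 5581 and 6255 CPM in male libraries, against 7221, 8264 and 7004 CPM in female ones. Of the other plasma cell markers, Sdc1 was lower in every male library, while Jchain, Mzb1 and Xbp1 overlapped between the sexes. T and natural killer cell genes summed to 162 to 175 CPM in male and 131 to 150.1 CPM in female libraries, carried by Nkg7. The T cell markers Cd3e, Cd3d and Cd8a were not tested, and only 3 of the 5 genes of that list were in the count table. Lung epithelial genes, led by Sftpc, were counted in every library, at 212, 422 and 217 CPM in male replicates 1 to 3 against 192, 169 and 140 CPM in the female ones. The deposited barcode list names lung samples in the same pool. The part of these differences in the values below was not tested. In bulk RNA, a smaller number of cells of a type and less RNA per cell cannot be told apart.

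Translation factors made up a steady share of raw counts. The 64 members held 2.04%, 1.96% and 1.93% of counts in male replicates 1 to 3, against 1.995%, 1.95% and 2.01% in the female ones. These 2 ranges of raw shares overlap. On the TMM scale the members summed to 19882, 22178 and 20488 CPM in male libraries, against 19275, 19488 and 19839 CPM in female ones. There the lowest male library lay just above the highest female one, and the male mean was 1.07 times the female one. Of the 64, 60 had enough counts to be tested, and the 4 others (Eef1akmt3, Eif4a3l2, Eif3j2 and Eif5a2) had 0 to 27 counts summed over 1 sex. In level the tested members ran from 14.8 CPM for Eif2ak3, the kinase PERK of the endoplasmic reticulum, to 2773 CPM for Eef2. CPM here are 3′-end counts, which are not divided by transcript length.

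No member passed the test for a difference between male and female cells. With p-values of edgeR's quasi-likelihood test, adjusted by Benjamini and Hochberg's method over 8460 tested genes, 49 genes were called (0.579%), 36 higher in male cells (0.426%) and 13 lower (0.154%), and 0 of the 60 members were. At an unadjusted p under 0.05, 5 members were on the higher side (all tested genes, 6.83%) and 1 on the lower side (all tested genes, 4.5%). DESeq2 called 0 members as well and limma-voom 0. The members' fold changes ran from -0.46 for Eif2ak2 to 0.57 for Eef1e1 on the log2 scale, and the median half-width of their 95% intervals was 0.28. Their median was 0.04, against -0.003 for all tested genes, with 34 of 60 above 0 (56.7%, against 49.3% of all tested genes). With library-size scaling in place of TMM the median of all genes was -0.09 and that of members -0.05, with 22 of 60 above 0.

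**Figure D1:**
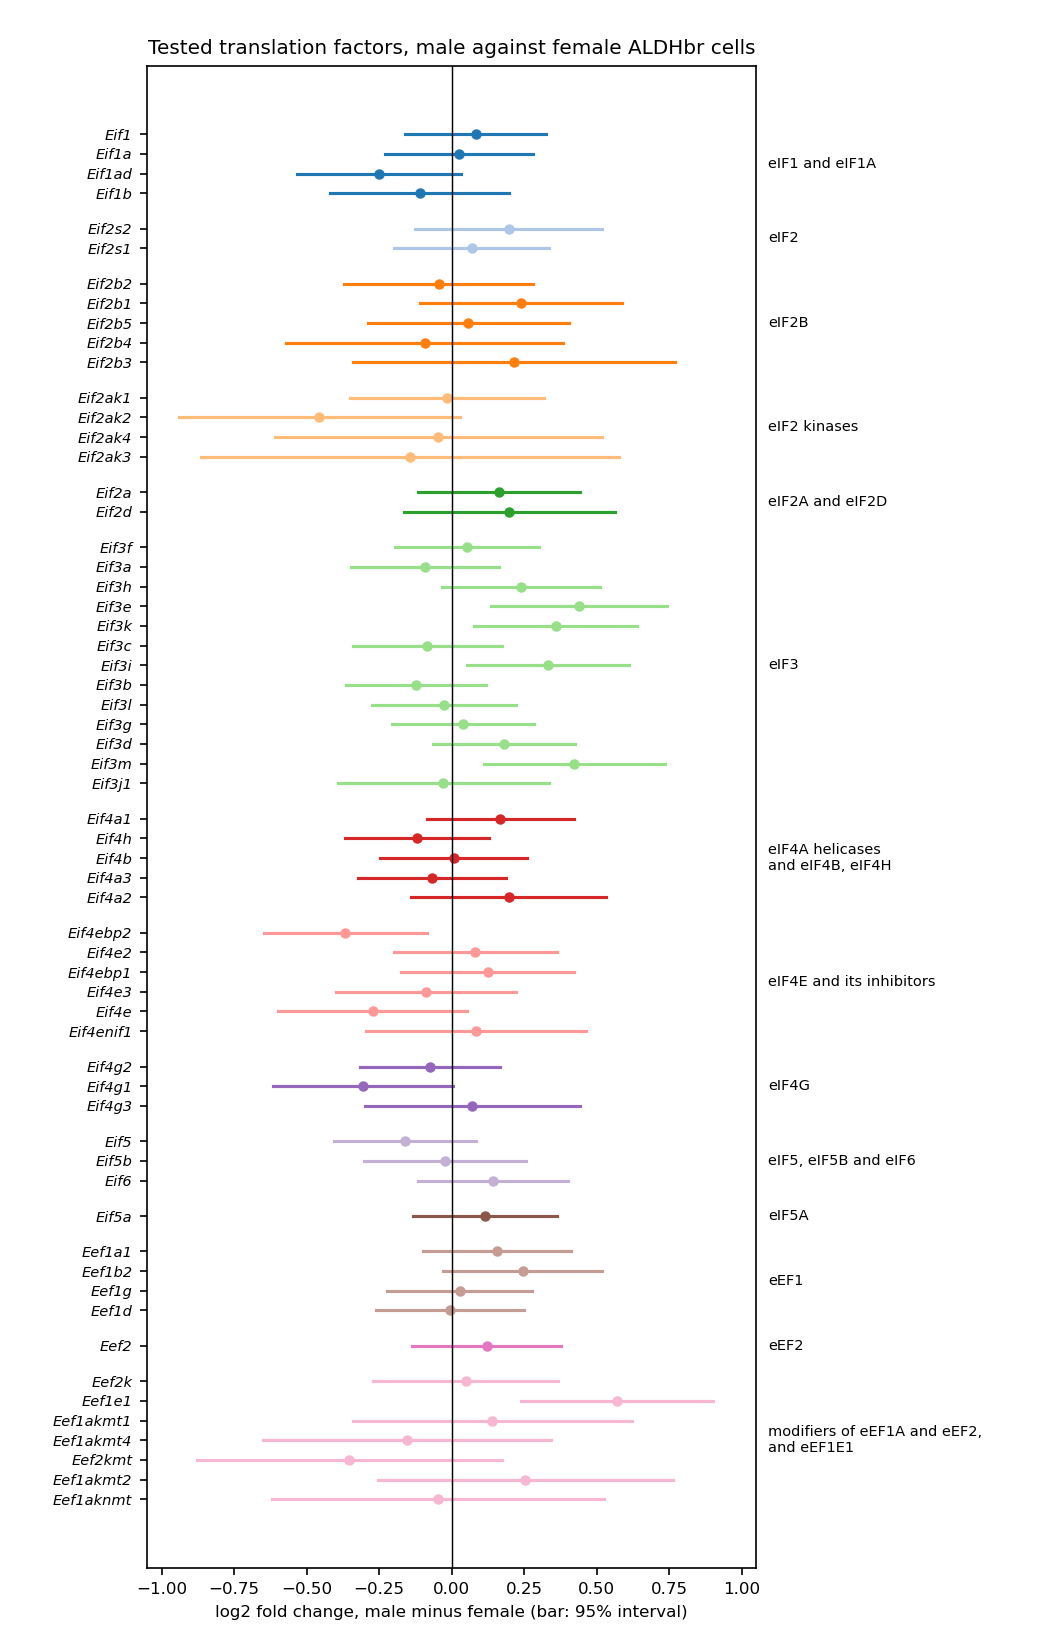
Log2 fold change, male minus female, of the 60 tested translation factors with 95% intervals (bars) from edgeR's quasi-likelihood fit, in role groups ordered down the page. Fold changes run from -0.46 for Eif2ak2 to 0.57 for Eef1e1, and most intervals cross 0.

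In 6 members every male library lay above every female one (10%), against 7.57% of all tested genes. These were Eef1a1, Eef2, Eif3d, Eif3h, Eif3k and Eef1e1. In 6 members every male library lay below every female one (10%), against 8.03% of all tested genes. These were Eif1ad, Eif2ak2, Eif3b, Eif4e, Eif4ebp2 and Eif5. Both shares are near the background.

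None of the 4 genes of the eIF1 and eIF1A group was called. Eif1, which guards the choice of start codon, had 440.2, 401 and 428 CPM in male libraries, against 389.8, 423 and 386 CPM in female ones. These overlap, and its log2 fold change was 0.08 ± 0.12 (SE, n = 3 each). Eif1ad, named for its eIF1A-like domain, had 81.5, 94.8 and 94.0 CPM in male libraries, against 109.5, 105 and 105 CPM in female ones. All 3 male values are the lower ones, with a log2 fold change of -0.25 (95% interval -0.53 to 0.03) and an adjusted p of 0.515 by edgeR's quasi-likelihood test. Its span overlaps Banf1 on the opposite strand, and the sources used here do not say if strand was used in counting. Eif1a (0.03) and Eif1b (-0.11), which also act in start selection, had smaller log2 fold changes. The group summed to 759 ± 16.6 CPM in male and 756 ± 17.8 CPM in female libraries (SD, n = 3 each).

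Of eIF2, the carrier of the initiator tRNA, the 2 autosomal subunits are members. Eif2s2, the beta subunit (chromosome 2, 154871410 to 154892935, GRCm38), had 204, 353 and 216 CPM in male libraries, against 222, 211 and 231 CPM in female ones. Male replicate 2 was the high sample and the other male libraries lay within or below the female range. The log2 fold change was 0.20 ± 0.16 (SE) and became -0.08 without male replicate 2. Eif2s1, the alpha subunit that eIF2 kinases phosphorylate, had 156, 208 and 192 CPM in male libraries, against 177, 159 and 191 CPM in female ones, again with overlap. Summed, both subunits had 443 ± 105 CPM in male and 397 ± 26.4 CPM in female libraries (SD, n = 3 each), a difference below the spread of the male libraries.

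The gamma subunit of eIF2, which binds GTP and the tRNA, is encoded by Eif2s3x on the X chromosome (94188707 to 94212862) and Eif2s3y on the Y chromosome (1010543 to 1028847), which the rule leaves out. Eif2s3x escapes X inactivation, and Eif2s3y is its Y-linked copy. Eif2s3y had 59, 49 and 61 counts in male libraries, against 0, 0 and 0 counts in female ones. Set against 3 counts for all females together, the limit that a count of 0 allows, it was at least 98.8-fold higher in male cells, and its share of the pair's reads in females was 0 of 306, which allows a share of up to 0.980% (counting error only). Eif2s3x had 45.4, 31.6 and 45.8 CPM in male libraries, against 71.7, 73.8 and 83.1 CPM in female ones. All male libraries lay below the female ones, and the gene fell by 0.87 on the log2 scale (SE 0.17) with an adjusted p of 0.0126 by edgeR's quasi-likelihood test. The log2 fold change was -0.87 with DESeq2 (adjusted p = 0.0716), -0.74 without male replicate 2 (adjusted p = 0.0761), -0.94 without male replicate 3 (adjusted p = 0.0694) and -0.80 without female replicate 3 (adjusted p = 0.0883), so the call was lost in these 4 fits while the fold kept its sign and much of its size. Added together, the X and Y copies had 114, 113 and 119 CPM in male libraries, against 71.7, 73.8 and 83.1 CPM in female ones. The male sum was 1.52 times the female one, and the libraries did not overlap. Eif1ax, an X-linked gene for eIF1A, had 224, 241 and 206 CPM in male libraries, against 215, 203 and 202 CPM in female ones, with overlap and a log2 fold change of 0.11 ± 0.12 (SE).

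**Figure D2:**
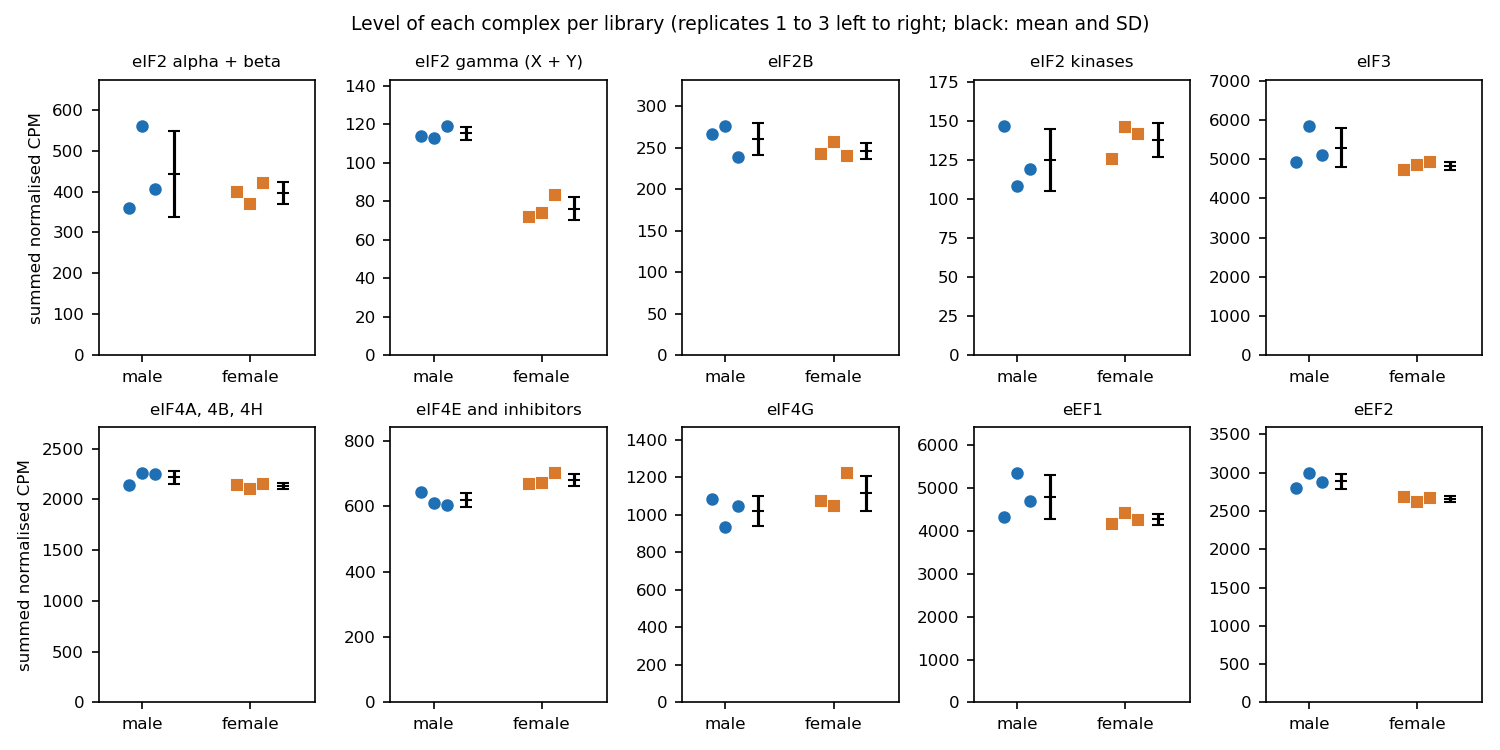
Summed normalised CPM of each complex in each library, male (blue circles) left of female (orange squares), replicates 1 to 3 from left to right, with mean and SD beside them; each vertical axis starts at 0. The sum of the X- and Y-linked eIF2 gamma copies is 113 to 119 CPM in male and 71.7 to 83.1 CPM in female libraries, and male replicate 2 is the high sample for eIF2, eIF3 and eEF1.

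eIF2B, the exchange factor that reloads eIF2 with GTP, summed to 260.5 ± 19.5 CPM in male and 246 ± 9.44 CPM in female libraries. Eif2b1, its alpha subunit, had 73.4, 76.5 and 73.5 CPM in male libraries, against 54.0, 77.9 and 55.4 CPM in female ones. Female replicate 2 stood with the male libraries, and the log2 fold change was 0.24 ± 0.17 (SE). Eif2b2, the beta subunit, had 68.7, 73.2 and 61.4 CPM in male libraries, against 62.8, 78.6 and 66.2 CPM in female ones, which overlap, and Eif2b3, Eif2b4 and Eif2b5 had log2 fold changes from -0.09 to 0.21.

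The 4 kinases that phosphorylate eIF2 all had log2 fold changes below 0 (2 of 4 after removal of a trend with transcript length) and none passed the test. They summed to 125 ± 19.9 CPM in male and 138 ± 10.8 CPM in female libraries, which overlap. Eif2ak1, the heme-regulated kinase HRI that matters in red cell precursors, had 75.7, 54.9 and 59.0 CPM in male libraries, against 63.6, 67.1 and 63.1 CPM in female ones. Male replicate 1 was above and the other males below the female range, and its log2 fold change of -0.02 was above 0 in 3 of the 6 leave-one-out fits. Eif2ak2, the double-stranded RNA sensor PKR, had 19.8, 28.3 and 25.3 CPM in male libraries, against 29.8, 36.6 and 32.3 CPM in female ones. Every male library was lower, by little between the nearest pair, with a log2 fold change of -0.46 (95% interval -0.94 to 0.03) and an adjusted p of 0.476 by edgeR's quasi-likelihood test. Its depth was 55 counts in males and 133 in females. Eif2ak4 (GCN2, the sensor of uncharged tRNA) had -0.04 and Eif2ak3 -0.14, each with a wide interval at 14.8 to 23.9 CPM.

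Eif2a and Eif2d, factors of alternative initiation and of re-initiation, had similar fold changes. Eif2a had 166, 151 and 158 CPM in male libraries, against 114, 161 and 149 CPM in female ones, so only female replicate 1 stood apart. Eif2d had 64.1, 61.5 and 45.8 CPM in male libraries, against 49.9, 50.8 and 47.7 CPM in female ones, with male replicate 3 below the females. Log2 fold changes were 0.16 ± 0.14 and 0.20 ± 0.18 (SE). Both spans overlap a gene on the other strand, Serp1 with 2737 counts over the 6 libraries and Rassf5 with 545.

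eIF3 is the scaffold on the small subunit, in mammals a core of subunits a, c, e, f, h, k, l and m with b, d, g, i and the loosely bound j around it. Its 14 members summed to 4938, 5851 and 5105 CPM in male libraries, against 4727, 4839.6 and 4926 CPM in female ones. Male replicate 2 was far above the rest, the lowest male library lay just above the highest female one, and the means were 5298 ± 486 and 4831 ± 99.9 CPM (SD, n = 3 each). The log2 ratio of the sums was 0.13, 0.06 without male replicate 2 and 0.03 with library-size scaling. Of 13 tested subunits, 8 had fold changes above 0 (6 with library-size scaling), 4 of them at an unadjusted p under 0.05 (Eif3e, Eif3m, Eif3k and Eif3i), and 0 were called.

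Those 4 subunits shared 1 pattern over the libraries: high in male replicate 2, intermediate in male replicate 3, and in male replicate 1 near the female level. Eif3e (chromosome 15, 43250058 to 43282719) had 398, 674 and 546 CPM in male libraries, against 378, 390.2 and 419 CPM in female ones. Male replicate 1 lay inside the female range, and the log2 fold change was 0.44 ± 0.15 (SE) with an adjusted p of 0.225 by edgeR's quasi-likelihood test. Eif3m had 158, 281 and 224 CPM in male libraries, against 161, 157 and 171 CPM in female ones. Eif3k had 412, 619 and 465 CPM in male libraries, against 399, 379 and 383 CPM in female ones. Eif3i had 375, 549 and 437 CPM in male libraries, against 343, 387 and 345 CPM in female ones. Among these 3, only in Eif3k did every male library exceed the females. Their log2 fold changes were 0.42, 0.36 and 0.33, with 95% intervals of 0.11 to 0.74, 0.08 to 0.64 and 0.05 to 0.61 that are not adjusted for the number of genes.

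The male libraries of Eif3h, Eif3g and Eif3b were in the same order, with Eif3b below the females in every male library, while Eif3f, Eif3a, Eif3c, Eif3d, Eif3j1 and Eif3l were in another. Eif3f, a core subunit and the eIF3 member with the highest level, had 780, 825 and 702 CPM in male libraries, against 764, 753 and 703 CPM in female ones. Eif3a, the largest subunit, had 683, 537 and 629 CPM in male libraries, against 651, 621 and 703 CPM in female ones, so here male replicate 2 was the lowest library. Their log2 fold changes were 0.05 ± 0.12 and -0.09 ± 0.12 (SE). As a share of all eIF3 counts, Eif3a made up 13.8%, 9.18% and 12.3% in male libraries, against 13.8%, 12.8% and 14.3% in female ones. Eif3e made up 8.07%, 11.5% and 10.7% in male libraries, against 7.99%, 8.06% and 8.51% in female ones. Male replicate 2 held the smallest share of Eif3a and the highest share of Eif3e. Eif3h (0.24) and Eif3d (0.18) had fold changes above 0 without overlap, Eif3b had -0.12 without overlap, and Eif3c, Eif3g, Eif3j1 and Eif3l lay between -0.08 and 0.04.

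Without male replicate 1, the fit called 337 genes higher and 78 lower in male cells (4.62% of 8989 tested), and 6 of 60 members (10%). By edgeR's quasi-likelihood test these were Eif3e (log2 fold change 0.62, adjusted p = 0.00114), Eif3m (0.62, adjusted p = 0.00292), Eif3k (0.48, adjusted p = 0.0158), Eif3i (0.45, adjusted p = 0.0234) and Eef1e1 (0.67, adjusted p = 0.0175) on the higher side and Eif4ebp2 (-0.54, adjusted p = 0.0122) on the lower side. No other library, when left out, gave a called member. Male replicates 2 and 3, which remain in that fit, also held larger shares of ribosomal protein counts (16.4% and 14.7%, against 12.5% in male replicate 1 and 11.6% to 12.7% in females) and male replicate 2 the largest mitochondrial share (7.61%, against 3.59% to 6.27% in the other libraries). The part of these shares, of the lung transcripts and of transcript length in the called members was not tested. Annotated transcript lengths ran from 774 bases (Eif3k) to 1506 bases (Eif3e) in the called eIF3 members. They were 2553 bases for Eef1e1 and 5784 bases for Eif4ebp2.

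**Figure D3:**
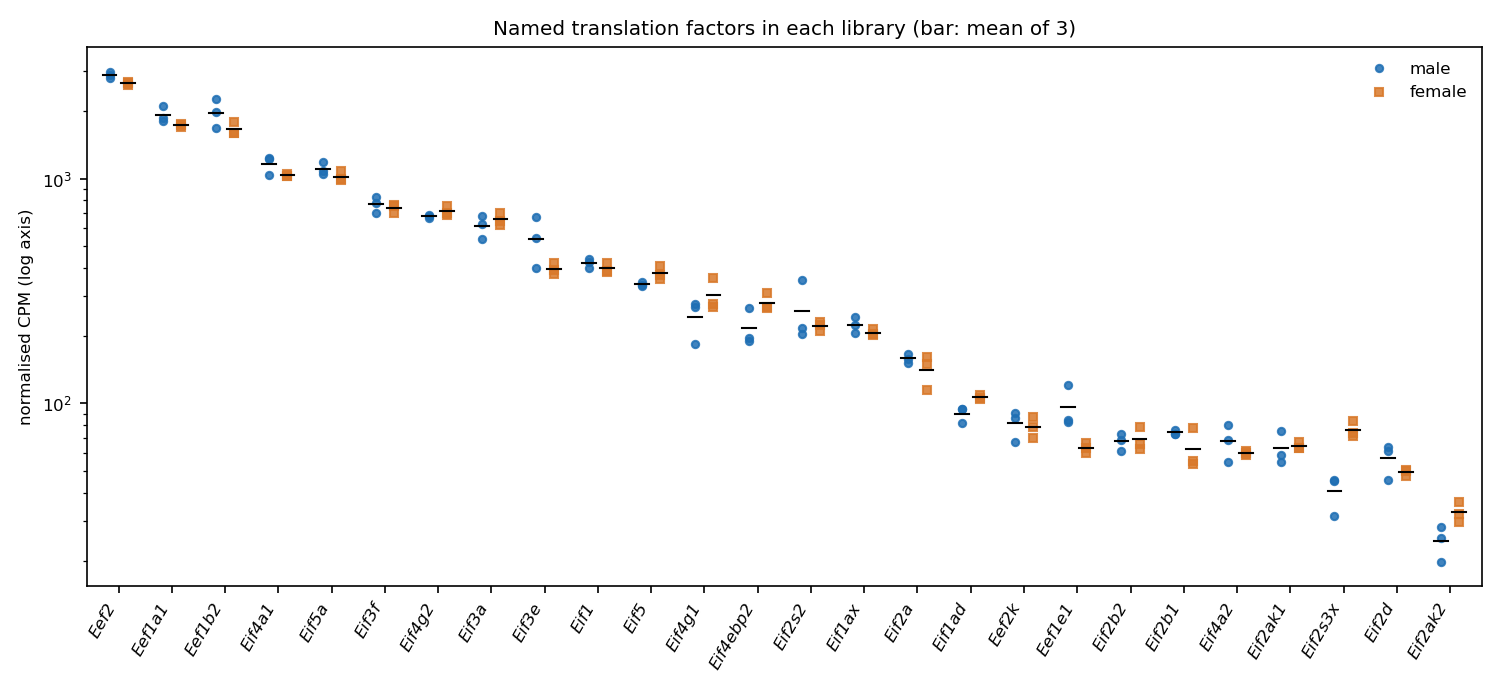
Normalised CPM (log axis) of the named factors detected in both sexes, each with male libraries (blue circles) left of female libraries (orange squares); a bar marks the mean of 3. Eef2 is at the top with 2615 to 2993 CPM, and for Eif2s3x the 3 male libraries (31.6 to 45.8 CPM) lie below the 3 female ones (71.7 to 83.1 CPM).

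The cap-binding side of initiation was led by the helicase. Eif4a1, which unwinds the 5′ leader, had 1038, 1219 and 1236 CPM in male libraries, against 1029, 1029 and 1048 CPM in female ones. Male replicate 1 was at the female level, and the log2 fold change was 0.17 ± 0.12 (SE). Its paralog Eif4a2 had 80.4, 54.9 and 68.7 CPM in male libraries, against 58.8, 60.3 and 61.6 CPM in female ones, and its span overlaps Rfc4 on the other strand. Eif4a1 made up 94.4% ± 1.47 of the pair in male and 94.5% ± 0.0799 in female libraries (SD, n = 3 each). Eif4b and Eif4h, which stimulate the helicase, and Eif4a3, the helicase of the exon junction complex, had log2 fold changes of 0.01, -0.12 and -0.07.

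Among eIF4E and its inhibitors, the 4E-binding protein 2 had the lowest p. Eif4ebp2 (chromosome 10, 61428491 to 61452661) had 264, 196 and 190 CPM in male libraries, against 267, 265 and 311 CPM in female ones. Male replicate 1 lay just under the lowest female library while the other 2 males were well below, and the log2 fold change was -0.37 ± 0.14 (SE) with an adjusted p of 0.277 by edgeR's quasi-likelihood test. Eif4ebp1, the other 4E-binding protein of the set, had a log2 fold change of 0.12. The share of Eif4ebp2 in the pair was 75.7%, 67.4% and 64.2% in male libraries, against 73.6%, 77.1% and 77.8% in female ones. Male replicate 1 fell in the female range of that share. Eif4e, the cap-binding protein, had 61.7, 59.9 and 51.8 CPM in male libraries, against 66.8, 69.8 and 72.3 CPM in female ones. These do not overlap, with a log2 fold change of -0.27 (95% interval -0.60 to 0.05). Its relatives Eif4e2 (0.08) and Eif4e3 (-0.09) and the transporter Eif4enif1 (0.08) were closer to 0, and the group summed to 618 ± 21.8 CPM in male and 679.96 ± 18.5 CPM in female libraries.

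None of the 3 eIF4G scaffolds was called. Eif4g2, which lacks the eIF4E-binding site, had 684, 690.2 and 668 CPM in male libraries, against 706, 689.5 and 753 CPM in female ones. Eif4g1, the main scaffold of eIF4F, had 276, 183 and 268 CPM in male libraries, against 270, 276 and 361 CPM in female ones. Male replicate 2 was the low and female replicate 3 the high library, the others lying together, and the log2 fold change was -0.31 (95% interval -0.61 to 0.004). Eif4g3 also had its lowest value in male replicate 2, at 59.9 CPM against 83.3 to 122 CPM elsewhere, with a log2 fold change of 0.07 ± 0.18 (SE).

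Subunit joining factors and eIF5A had small differences. Eif5, which triggers GTP hydrolysis on eIF2, had 338, 334 and 347 CPM in male libraries, against 373, 358 and 409 CPM in female ones. All male libraries were lower, with a log2 fold change of -0.16 ± 0.12 (SE) and an adjusted p of 0.665 by edgeR's quasi-likelihood test. Eif5b, the GTPase of subunit joining, had -0.02 and Eif6, which keeps free large subunits apart from small ones, had 0.14. Eif5a, the hypusine-bearing factor that relieves stalled ribosomes, had 1076, 1186 and 1053 CPM in male libraries, against 1079, 997 and 982 CPM in female ones, with overlap and a log2 fold change of 0.12 ± 0.12 (SE).

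Eef2, Eef1a1 and Eef1b2 were the 3 members with the highest counts, and together eEF1 and eEF2 held 36.8% ± 0.892 of all member counts in male and 35.5% ± 0.590 in female libraries (SD, n = 3 each). Eef2, the translocase (chromosome 10, 81176631 to 81182498), had 2799, 2993 and 2876 CPM in male libraries, against 2683, 2615 and 2673 CPM in female ones. Eef1a1, which delivers aminoacyl-tRNA, had 1799, 2094 and 1869 CPM in male libraries, against 1697, 1748 and 1722 CPM in female ones. In both genes the male libraries were the 3 highest, with log2 fold changes of 0.12 (95% interval -0.14 to 0.38) and 0.16 (95% interval -0.10 to 0.41). Eef1b2, the exchange subunit that reloads eEF1A, had 1675, 2252 and 1970 CPM in male libraries, against 1601, 1777 and 1592 CPM in female ones. Male replicate 1 lay within the female range, and the log2 fold change was 0.25 ± 0.13 (SE); its span overlaps Ndufs1 on the other strand. Eef1g (0.03) and Eef1d (-0.01), further parts of the exchange complex, were close to 0, and eEF1 summed to 4789 ± 515 CPM in male and 4269 ± 128 CPM in female libraries. Eef1a1 has many processed copies in the genome, so its count is uncertain to the extent that reads were split among them.

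Among modifiers, Eef2k, the kinase that stops eEF2, had 90.8, 86.5 and 67.5 CPM in male libraries, against 78.9, 70.4 and 87.0 CPM in female ones, with overlap and a log2 fold change of 0.05 ± 0.15 (SE). Eef1e1, whose product is known as AIMP3 and sits in the aminoacyl-tRNA synthetase complex, had 82.7, 121 and 84.3 CPM in male libraries, against 63.6, 66.4 and 60.03 CPM in female ones. Every male library was above every female one, and male replicate 2 was the high sample. Its log2 fold change of 0.57 (95% interval 0.24 to 0.90) had the lowest p of the 60 members, with an adjusted p of 0.136 by edgeR's quasi-likelihood test, and was 0.40 without male replicate 2. The methyltransferases Eef1akmt1, Eef1akmt2, Eef1akmt4, Eef1aknmt and Eef2kmt, at 18.4 to 31.2 CPM, had log2 fold changes from -0.35 to 0.25, none called.

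Fold changes of the members ran with transcript length, and so did those of all tested genes. By Spearman's rho across genes, which are not independent replicates and share these libraries, the log2 fold change and the length of the APPRIS principal transcript had a rho of -0.47 over 60 members and -0.36 over 8460 genes. The value for the members depended on how length was defined: with the longest annotated transcript it was -0.32 (all genes -0.34), and with coding length -0.10 (all genes -0.31). Of 25 members up to 2000 bases, 19 had fold changes above 0, with a median of 0.14 (all genes of that length, 0.12). Of 21 members over 2000 and up to 4000 bases, 13 were above 0, with a median of 0.05 (all genes, -0.02). Of 14 members over 4000 bases, 2 were above 0, with a median of -0.07 (all genes, -0.11). Without these 14 the rho was -0.27 over 46 members.

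By principal transcript length, the male libraries did not share a length pattern, while the female ones were alike in sign. The rho between length and the deviation of a library from the mean of all 6 was 0.26, -0.40 and -0.37 for members in male replicates 1 to 3, against 0.33, 0.15 and 0.48 in female replicates 1 to 3. Male replicate 1 was on the female side. With coding length the members' values were 0.29, -0.21 and -0.14 in male replicates 1 to 3, against 0.02, -0.03 and 0.23 in female replicates 1 to 3. The female libraries were then not alike in sign. Each library is part of the mean of 6, so these deviations are not independent of each other. Without male replicate 2 the rho of the fold change was -0.31 for members and -0.20 for all genes. Without male replicate 1 it was -0.54 and -0.40, and the other fits without 1 library lay between these. After a smooth length trend over all genes was removed from each library, a step chosen after the data were seen, 0 members were called, and Eif3k had a log2 fold change of 0.15, Eif3i 0.19, Eif3m 0.30, Eif3e 0.34, Eif4ebp2 -0.25 and Eef1e1 0.58. Eif4g2 had -0.27 there, against -0.07 before. That change rests on an annotated principal transcript of 742 bases, which may not be the length of its mRNA in these cells. The same length places Eif4g2 among the members up to 2000 bases, and the trend was not removed with another definition of length.

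**Figure D4:**
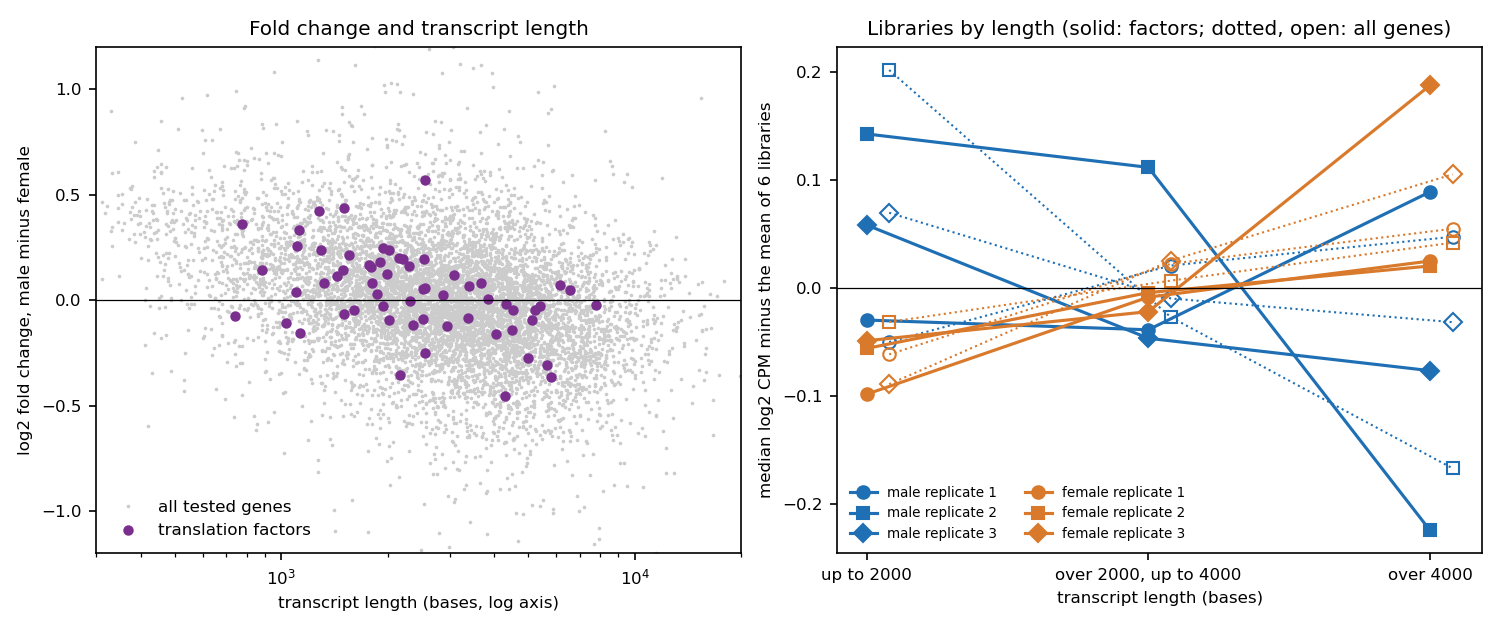
Left, log2 fold change (male minus female) against APPRIS principal transcript length (log axis) for 60 members (purple) and all tested genes (grey, some beyond the vertical range). Right, median deviation of each library from the mean of 6 in 3 length ranges, members solid and all genes dotted; male replicate 2 is at 0.14 for members up to 2000 bases and at -0.22 for members over 4000 bases.

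In the other pathway lists, the sex-linked factors above aside, no gene was called. Of 11 tested partners of the cap and poly(A) complex, 0 were called, with a median log2 fold change of -0.15. In 4 of the 11 every male library lay below the females (36.4%, against 8.03% of all tested genes) and in 2, Paip1 and Paip2, above (18.2%, against 7.57%). Pabpc1, the poly(A)-binding protein, had 4446, 4094 and 4173 CPM in male libraries, against 4564, 4502 and 5061 CPM in female ones, without overlap. Pdcd4, an inhibitor of eIF4A, had 507, 467 and 451 CPM in male libraries, against 594, 509 and 476 CPM in female ones, with overlap. Among 7 tested genes of the integrated stress response, which eIF2 phosphorylation switches on, 0 were called and 5 had fold changes above 0 (4 with library-size scaling). Atf4, its main transcription factor, had 312, 301 and 327 CPM in male libraries, against 264, 249 and 222 CPM in female ones. These do not overlap, with a log2 fold change of 0.36 ± 0.12 (SE) and an adjusted p of 0.228 by edgeR's quasi-likelihood test. Ppp1r15a, the GADD34 subunit that reverses the phosphorylation, had 80.4, 66.5 and 68.7 CPM in male libraries, against 51.5, 80.6 and 67.7 CPM in female ones, with overlap.

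In 12 tested genes of mTORC1 and MNK signalling 0 were called, with a median of -0.06, and the 2 with the highest level, Mknk2, a kinase of eIF4E, and Rheb, the activator of mTORC1, had log2 fold changes of 0.09 and 0.22. In 6 tested genes of termination and recycling 0 were called, with Gspt1 and Etf1, the release factors, at -0.01 and -0.03. In 8 tested genes of hypusine and diphthamide synthesis 0 were called, with a median of -0.07, and Dph3 and Dohh had 0.31 and -0.15. In 9 tested mitochondrial translation factors 0 were called, with a median of -0.04, and Tufm, the mitochondrial counterpart of eEF1A, and its exchange factor Tsfm had 0.02 and -0.26. Of 9 members known as TOP mRNAs (Eef1a1, Eef1b2, Eef1d, Eef1g, Eef2, Eif3e, Eif3f, Eif3h and Eif4b), 8 had fold changes above 0 (5 with library-size scaling), with a median of 0.12 against -0.003 for all tested genes, and 0 were called. In 3 of the 9 every male library lay above the females (33.3%, against 7.57% of all tested genes), and in 0 below.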

How the data were processed

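Per the file headers, the authors deposited a table of counts for each gene; its values are whole and were not normalised. Per the labels' protocols, BRB-seq reads carried a molecular identifier and a sample barcode. Per the submitters' processing notes, HISAT2 2.2.1, featureCounts 2.0.1, Trim Galore 0.6.7, UMI-tools and DESeq2 were used, and GRCm38 and GRCh38 are named as builds. No source used here says if identifiers were collapsed or if strand was used, so PCR copies may be counted and overlapping genes may share reads; 18 members overlap another counted protein-coding gene. Totals ran from 679724 to 1475224 counts.

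Genes were kept with filterByExpr (minimum count 10, minimum total 15), scaled by TMM and tested as male minus female with edgeR 4.0.16 in R 4.3.3, with a threshold of 0.05 after Benjamini-Hochberg adjustment over all tested genes. The standard error is that of the quasi-likelihood fit, and the common biological coefficient of variation was 0.102. Coordinates and lengths are those of GENCODE M21 (GRCm38). Steps were tested on simulated data. Alternatives were other scalings and filters, DESeq2 1.42.0, limma 3.58.1 (voom), a replicate block, each library left out, and a length trend added after seeing the data.

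The members and gene lists were chosen with earlier results of these data known. Values in every library are given for the member with the highest level and that with the largest fold change in each role group (in eIF3 and eEF1 also the next in level), and the sex-linked factors. From each other list the members past the threshold or the 2 with the highest level are named. Library values are given for those of the cap and poly(A) partners, the integrated stress response and the TOP mRNAs. For those of the remaining lists only log2 fold changes are given. Eif2s1, Eif3m, Eif3k, Eif3i, Eif4e and Eif4g3 were named with library values after these were seen.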

Additional observations from a re-analysis of the deposited data

How the results depend on the processing

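No member was called under any alternative other than leaving out male replicate 1. Library-size scaling gave 23 genes called lower in male cells (13 with TMM), 3 members with every male library above, and log2 ratios of summed CPM of -0.013 for eIF2B, 0.032 for eIF3 and -0.12 for eIF4 (0.08, 0.13 and -0.03 with TMM). It put 55.8% of called genes on the higher side, against 73.5% with TMM. No filter gave 81 higher and 35 lower, DESeq2 7 lower, limma-voom 8 lower, and removal of the length trend 20 lower and 2 members with every male library below. Leaving out 1 library gave 19 to 337 genes higher, 4 to 78 lower, 0 to 5 members called higher, 0 to 1 called lower, 7 to 13 members with every male library above and 6 to 10 below; the upper ends came from leaving out male replicate 1 and the lower ends of the called genes from leaving out male replicate 3.

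Of the 60 members, 12 changed the sign of their log2 fold change with library-size scaling, 10 with the length trend removed and 2 to 11 in the fits without 1 library. Among the members that the naming rule picks these were Eif3f -0.041, Eef2k -0.040 and Eif1 -0.0077 with library-size scaling, and Eif2ak1 0.060, Eif3a 0.015 and Eif1 -0.019 with the length trend removed. Over the fits without 1 library, those of them that turned ran from -0.17 to 0.062 for Eif2ak1, -0.050 to 0.18 for Eef2k, -0.076 to 0.34 for Eif2s2 and -0.11 to 0.065 for Eif2b2. The causes were not tested. Correlations of deviations between male and female libraries of the same replicate number were 0.03, 0.03 and 0.04. Those of different numbers ran from -0.03 to 0.001. All are small, and they do not settle whether replicate numbers pair the samples. With the replicate block 56 genes were higher and 22 lower (36 and 13 without it), and 0 members were called. Depth limits the low genes, such as Eif2ak3 with 33 male and 64 female counts.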
